A study of Schmidtea mediterranea with 60 samples.

Results

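The step examined here ran from 6 to 16 hours post amputation (hpa) in control planarians of the species Schmidtea mediterranea, strain CIW4, and it was read as 5 libraries at 16 hpa against 5 libraries at 6 hpa. These 10 libraries were taken by their labels out of 60 in the series. Control animals were fed double-stranded RNA against unc-22, the series' control target, and the other libraries of the series came from animals fed double-stranded RNA against bmp4, a secreted signal that patterns the dorsal-ventral axis. All animals had 4 feedings and were cut 7 days after the last one. Each library held polyadenylated RNA from 5 anterior-facing wounds of post-pharyngeal fragments, so each value is an average over pooled animals and over all cells of the tissue piece. The 12 groups of the series combined 2 RNAi conditions with 0, 3, 6, 16, 24 and 48 hpa, at 5 libraries each.

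Planarians regrow missing body parts from neoblasts, the dividing cells of the adult, which include its stem cells. An amputation first sets off a wound response in muscle, epidermis and neoblasts, in which stress genes and signals are switched on near the cut. When tissue is missing, later waves follow, with neoblasts gathering at the wound, changes in positional signals of the muscle and outgrowth of a blastema. A transcript level in such bulk tissue depends on both cell number and RNA per cell: fewer cells of a type and less RNA per cell cannot be told apart.

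The control libraries held between 15432016 and 21718234 counts at 16 hpa and between 13041181 and 23912275 at 6 hpa. Across the series the totals ran between 5920900 and 23912275. Within each group, log2 levels of library pairs correlated with Pearson's r between 0.986 and 0.992 across transcripts, which are not independent replicates. No pair agreed within sampling noise, since the smallest chi-square was 4.04 per degree of freedom. The labels do not say that the libraries of a group came from separate experiments, so p-values measure the spread between libraries. The main edgeR fit estimated this spread over all 60 libraries, including those of bmp4 RNAi. The 8 mitochondrial transcripts took 0.310% ± 0.033 of counts at 16 hpa and 0.289% ± 0.050 at 6 hpa (SD, n = 5 each), a difference with an exact two-sided permutation p of 0.460 (adjusted 0.460 over 3 tests). Cell types could not be checked against defining markers, because the sources used here pair too few marker genes with transcript IDs.

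At 16 hpa 1639 transcripts were higher than at 6 hpa and 1164 were lower, together 2803 of 18510 tested at an adjusted p under 0.05 (edgeR quasi-likelihood test with Benjamini-Hochberg adjustment). This was 15.1% of tested transcripts called, 8.85% higher and 6.29% lower. Most changes were small. The median called rise was 0.41 on the log2 scale, a 1.33-fold difference, and the median called fall was -0.38, or 1.30-fold. In all, 179 rises and 105 falls reached 2-fold. The called transcripts were also more abundant, with a median of 24.0 CPM (counts scaled to library size) for rises and 23.6 CPM for falls, against 7.88 CPM for transcripts not called. In 2911 transcripts, 15.7% of those tested, the 5 values at 16 hpa did not overlap the 5 values at 6 hpa, and 2001 of these were called. A fit of the 10 libraries alone, which tested 16472 transcripts and estimated the spread from these libraries only, called 4295. With library totals in place of TMM scaling, the higher transcripts were 2038 and the lower ones 866.

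The spans on either side of the step gave fewer calls. Between 6 and 3 hpa 1542 transcripts differed (8.33%), and between 24 and 16 hpa 290 differed (1.57%). These spans cover unlike numbers of hours and each shares 5 libraries with the step, so no rate was compared. They were added after the main results had been seen.

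The largest rise with non-overlapping groups was transcript dd_Smed_v6_17217_0_1, which the sources used here do not name. It had 1.89, 1.82, 2.35, 2.08 and 1.30 CPM at 16 hpa, against 0.245, 0.130, 0, 0.178 and 0.505 CPM at 6 hpa (log2 change 3.13 ± 0.51 SE, edgeR adjusted p = 8.84e-06). All 16 hpa libraries were therefore above all 6 hpa libraries, at levels of 0 to 44 raw counts. At 0 hpa it stood at 1.49 ± 0.18 CPM (SD, n = 5). Transcript dd_Smed_v6_66540_0_1 had 3.06, 3.16, 2.74, 1.99 and 2.43 CPM at 16 hpa, against 0.817, 0.173, 0.381, 0.178 and 0.379 CPM at 6 hpa (log2 change 2.89 ± 0.34 SE). It differed from the first in having only 0.349 ± 0.243 CPM at 0 hpa (SD, n = 5).

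The largest falls were also at low levels. Transcript dd_Smed_v6_2317_0_1 had 0, 0.486, 0, 0 and 0.162 CPM at 16 hpa, against 1.80, 3.11, 1.45, 2.13 and 3.41 CPM at 6 hpa (log2 change -4.22 ± 0.82 SE, edgeR adjusted p = 2.01e-04). Transcript dd_Smed_v6_18151_0_1 had 0, 0.304, 0.0547, 0 and 0 CPM at 16 hpa, against 0.653, 1.34, 0.913, 1.66 and 1.26 CPM at 6 hpa (log2 change -4.02 ± 0.84 SE). Several libraries were at 0 in both, so the fitted folds are imprecise. A set of 76 transcripts varied by an SD above 1 log2 unit within the groups outside this comparison, and 25 of them were among the falls of at least 2-fold, against 0 among the rises. These 76 took 0.046% to 0.206% of counts at 16 hpa and 0.190% to 0.528% at 6 hpa. What sets their level was not tested.

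Transcripts are named below by their best human blastx match, and each role given is that of the human gene. A name was on hand for 570 tested transcripts, a subset fixed by ID order, and 115 of them (64 higher, 51 lower) were called. The transcript matching BPTF, the large subunit of the NURF chromatin remodeler, was the largest named rise. It had 33.4, 32.2, 32.0, 31.8 and 31.6 CPM at 16 hpa, against 14.5, 15.4, 14.7, 15.6 and 19.6 CPM at 6 hpa (log2 change 1.01 ± 0.11 SE, edgeR adjusted p = 3.82e-10). The groups did not overlap, and the 16 hpa libraries lay within 2 CPM of each other.

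CNTRL encodes centriolin, a centrosome protein needed at the end of cell division. Its match had 71.2, 87.1, 83.8, 66.2 and 76.9 CPM at 16 hpa, against 44.4, 47.4, 48.1, 48.3 and 44.7 CPM at 6 hpa (log2 change 0.73 ± 0.10 SE, edgeR adjusted p = 3.17e-07). The match of PAX5, a paired-box transcription factor, had 20.9, 18.9, 21.4, 20.4 and 19.3 CPM at 16 hpa, against 11.2, 12.1, 13.8, 11.6 and 13.0 CPM at 6 hpa (log2 change 0.71 ± 0.12 SE). Both were higher in every 16 hpa library than in any 6 hpa library.

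Some genes of the matrix and of cell contacts were among the rises, while matches of FBN2 (log2 change -0.31) and SPARCL1 (-0.30) were lower. HSPG2 encodes perlecan, a basement membrane proteoglycan, and its match averaged 2249 ± 114 CPM at 16 hpa and 1637 ± 156 CPM at 6 hpa (SD, n = 5 each; log2 change 0.46 ± 0.09 SE). The match of ADAMTS20, a secreted metalloprotease, averaged 159 ± 10.1 CPM at 16 hpa and 116 ± 8.09 CPM at 6 hpa (log2 change 0.46 ± 0.08 SE). PCDH1, a protocadherin of cell contacts, matched a transcript at 33.9 ± 2.91 CPM at 16 hpa and 24.3 ± 2.20 CPM at 6 hpa (log2 change 0.48 ± 0.08 SE). The remaining named rises by the same rule were CNBP, DDX5, GOLGA4, LRRCC1, DNAH10, UNC5D, TRPM3, LOXHD1 and EIF4G3, with log2 changes between 0.41 and 0.56.

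Among named falls, a match of TRAF2, an adaptor of tumor necrosis factor receptors, changed most (dd_Smed_v6_10569_0_1). It had 10.9, 10.03, 9.85, 9.03 and 10.3 CPM at 16 hpa, against 21.8, 20.2, 18.8, 20.3 and 23.9 CPM at 6 hpa (log2 change -1.07 ± 0.12 SE, edgeR adjusted p = 4.15e-10). Every 16 hpa library was below every 6 hpa library. Among matches of TRAF6, another TRAF adaptor, dd_Smed_v6_10407_0_1 was higher and averaged 161 ± 28.3 CPM at 16 hpa and 103 ± 15.7 CPM at 6 hpa (log2 change 0.65 ± 0.14 SE, edgeR adjusted p = 9.08e-04), with overlapping groups. A second transcript matching TRAF2 (dd_Smed_v6_10117_0_1, log2 change -0.10, edgeR adjusted p = 0.486) and a second one matching TRAF6 (dd_Smed_v6_10424_0_1, -0.11, edgeR adjusted p = 0.401) were not called.

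WDHD1 acts at the DNA replication fork, and LDB3 is a protein of the muscle Z-disc. The WDHD1 match had 34.5, 31.4, 29.7, 30.8 and 31.4 CPM at 16 hpa, against 49.3, 46.1, 45.0, 51.6 and 48.0 CPM at 6 hpa (log2 change -0.61 ± 0.14 SE). The LDB3 match had 13.7, 9.55, 12.4, 11.01 and 13.6 CPM at 16 hpa, against 17.6, 16.6, 21.5, 18.1 and 17.4 CPM at 6 hpa (log2 change -0.60 ± 0.11 SE). Neither pair of groups overlapped. The match of TSPAN5, a tetraspanin, had a log2 change of -0.997 ± 0.35 SE, and its adjusted p of 0.0439 passed the edgeR threshold narrowly, with 10 of 16 alternatives losing the call. The other named falls were ANKDD1B, KY, SLC16A4 (2 transcripts), GRM3, LRFN5, JAG1, KCNQ1, SLC10A2, ACTN2 and PANX2, with log2 changes between -0.55 and -0.40.

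**Figure D1:**
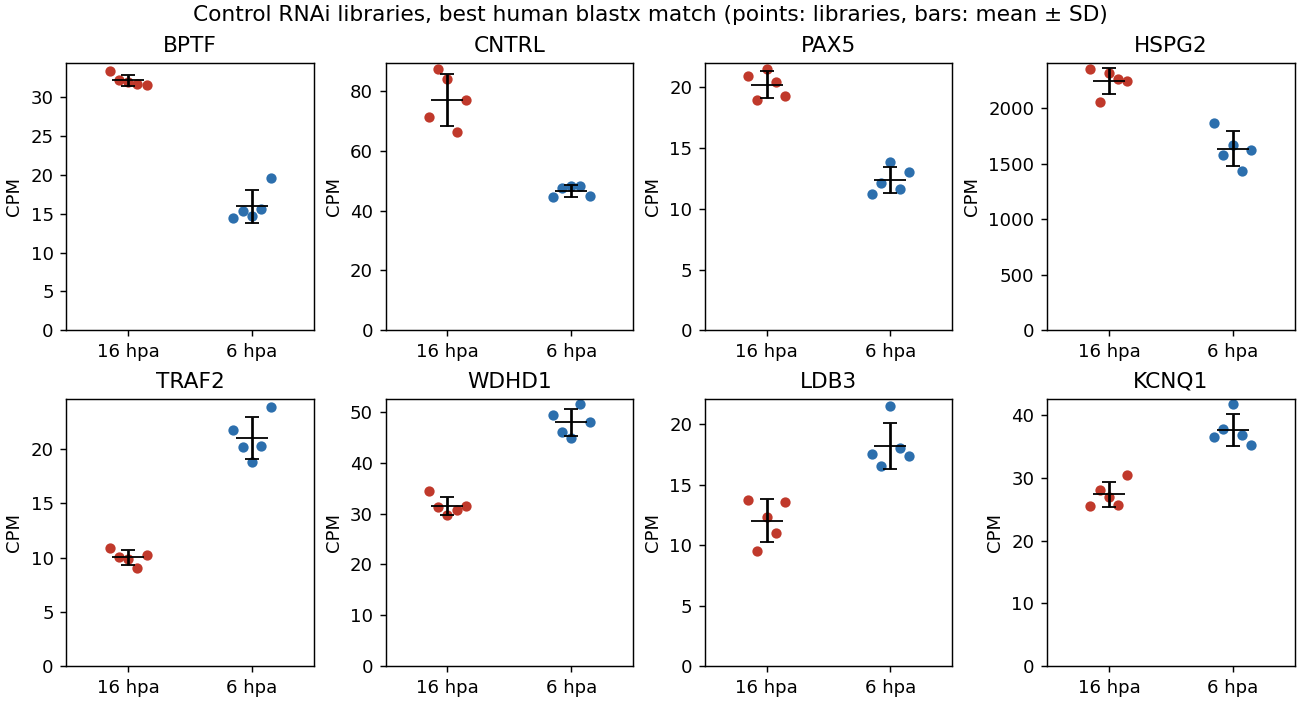
CPM of 8 transcripts in the 5 libraries at 16 hpa (left) and the 5 at 6 hpa (right) of control RNAi, with mean ± SD. BPTF, CNTRL, PAX5 and HSPG2 matches were higher and TRAF2, WDHD1, LDB3 and KCNQ1 matches lower at 16 hpa, and no pair of groups overlapped.

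Named transcripts were grouped in 15 lists by the role of the human match. Counts within a list cover only its tested members. These were 25 of 37 cilia genes, 26 of 37 neuronal genes and 3 of 12 ribosomal proteins, and other lists lost fewer or none. Members and lists were chosen with earlier results of these data known, so shares within a list are descriptive and were not tested. Of all 570 tested transcripts with a name, 11.2% were higher and 8.95% lower. In the chromatin and transcription list 11 of 33 tested members were higher and 0 lower, beside 8.85% and 6.29% of all transcripts, and the list's median log2 change was 0.11 against 0.00 over all. Besides BPTF, these included SETD2, a histone methyltransferase (log2 change 0.27), CHD1, a chromatin remodeler (0.30), and ZMIZ2, a transcriptional co-activator (0.29). POLR2A, the large subunit of RNA polymerase II, was not called (0.10, edgeR adjusted p = 0.56).

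Genes of cilia, which drive planarian gliding and the flow in protonephridia, had 7 of 25 tested members higher and 0 lower. The shares over all transcripts with a name were 11.2% and 8.95%, and the list's median log2 change was 0.14. CFAP43, a protein of the motile axoneme, matched a transcript at 43.8 ± 3.55 CPM at 16 hpa and 32.9 ± 2.13 CPM at 6 hpa (SD, n = 5 each). DNAH10, an axonemal dynein chain, stood at 40.5 ± 3.31 CPM at 16 hpa and 29.4 ± 3.87 CPM at 6 hpa. At 0 hpa the CFAP43 match had 35.3 ± 3.23 CPM and the DNAH10 match 38.2 ± 6.58 CPM. IFT172, of intraflagellar transport, was also higher (log2 change 0.30), whereas FOXJ1, a regulator of motile cilia, was not called (0.14, edgeR adjusted p = 0.29).

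In the list of neuronal receptors, channels and synaptic proteins, 0 of 26 tested members were higher, 9 were lower and 17 were not called. The list's median log2 change was -0.16, and the shares over all transcripts with a name were 11.2% higher and 8.95% lower. The match of KCNQ1, a potassium channel, had 25.6, 28.1, 27.0, 25.7 and 30.5 CPM at 16 hpa, against 36.6, 37.8, 41.9, 36.9 and 35.2 CPM at 6 hpa (log2 change -0.46 ± 0.08 SE, edgeR adjusted p = 2.13e-05). LRFN5, a synaptic adhesion protein (-0.50), GRM3, a metabotropic glutamate receptor (-0.51), and SYNJ1, which recycles synaptic vesicles (-0.43), were lower too. The SYNJ1 groups overlapped. Of the 17 members not called, GRIA4, an ionotropic glutamate receptor subunit, had a log2 change of -0.09.

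The matrix, adhesion and muscle list split, with 4 of 22 members higher and 5 lower, beside 11.2% and 8.95% of all transcripts with a name. HSPG2, ADAMTS20, PCDH1 and SYNE1 were the higher ones, and SYNE1, whose groups overlapped, lost its call in 4 of 16 alternatives. LDB3 and ACTN2, both of the muscle Z-disc, were lower, as were FBN2 and SPARCL1 of the matrix and CFL1, which severs actin filaments. The SPARCL1 groups overlapped. The DNA replication, repair and mitosis list had 5 of 23 members higher and 1 lower, beside the same shares. The higher ones were CNTRL, LRRCC1, TUBGCP6 and CEP120, which in human cells act at centrosomes or centrioles, and PARP1, a DNA damage sensor. WDHD1 was the lower one. Among the 17 members not called were CDC20 (0.03, edgeR adjusted p = 0.91) and ANAPC1 (0.18, edgeR adjusted p = 0.42). Whether cell division changed over the step was not tested.

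Among signalling genes 4 of 23 were higher and 1 lower, beside 11.2% and 8.95% of all transcripts with a name. JAG1, a Notch ligand, was lower (log2 change -0.47), while MIB1 and MIB2, ubiquitin ligases that act on Notch ligands, were higher (0.51 and 0.78). The MIB2 call was lost in 8 of 16 alternatives. Groups overlapped for MIB1 and for MIB2, which averaged 1.58 CPM at 16 hpa and 0.932 CPM at 6 hpa. Netrin receptor matches UNC5D (0.46) and UNC5B (0.26) were higher, and UNC5B lost its call in 2 of 16 alternatives. Of 17 transcription factors 3 were higher, PAX5, SOX5 (0.39) and ESR1 (0.24), and 1 was lower, SNAI2 (-0.39), with overlapping groups.

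The remaining lists are given by their counts, beside 11.2% higher and 8.95% lower among all transcripts with a name. Ribosome biogenesis had 0 of 22 members higher and 2 lower, WDR46 (-0.31) and NLE1 (-0.24), the NLE1 call being lost in 4 of 16 alternatives. Translation factors and tRNA enzymes had 3 of 18 higher and 1 lower, mRNA processing and decay 3 of 22 higher and 0 lower, and TRAF and cell death 1 of 15 higher and 2 lower, TRAF2 and CASP8 (-0.40). Lysosome and digestion had 1 of 11 higher and 2 lower, and mitochondrial function 1 of 18 higher and 0 lower. None of 10 tested chaperones and none of 3 tested ribosomal proteins was called by edgeR, and 0 passed an unadjusted p of 0.05 or DESeq2. In the chromatin, cilia and mRNA processing lists, with 0 members lower, an unadjusted p of 0.05 and DESeq2 also gave 0 lower, and in the neuronal list both gave 0 higher. Ribosome biogenesis had 3 members higher at an unadjusted p of 0.05 and 0 by DESeq2, and mitochondrial function had 1 lower by each.

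**Figure D2:**
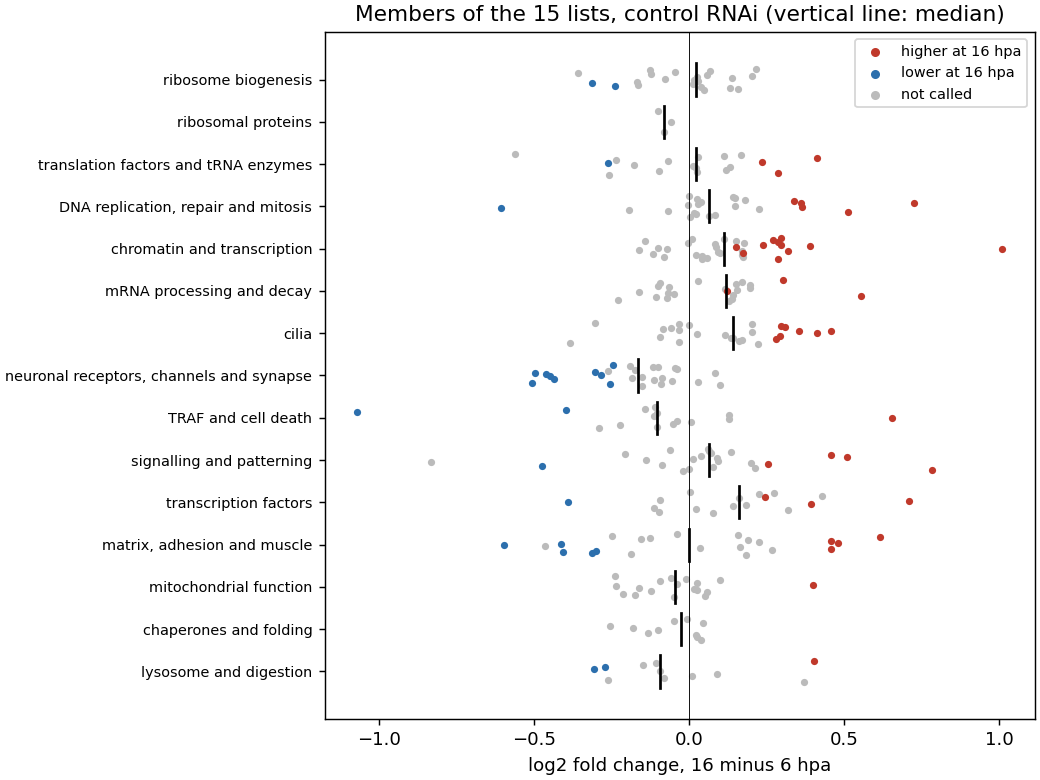
Log2 fold change of 16 minus 6 hpa (horizontal axis) for the tested members of 15 lists (rows), coloured by call, with the list median as a vertical line. Called members of the chromatin and cilia lists lie right of 0, and called members of the neuronal list lie left of it. The lists were drawn up with earlier results of these data known.

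The gene equinox, which the study centres on, did not differ detectably over the step. It had 10.5, 15.1, 13.9, 14.4 and 11.7 CPM at 16 hpa, against 11.8, 11.5, 13.8, 12.4 and 11.7 CPM at 6 hpa (log2 change 0.10 ± 0.13 SE, edgeR adjusted p = 0.676; exact two-sided permutation p = 0.444, adjusted 0.460). The groups overlapped, and the log2 change was 0.16 without control 16 hpa replicate 1 and 0.04 without control 16 hpa replicate 2. Its level was 4.75 ± 0.56 CPM at 0 hpa and 6.33 ± 0.61 CPM at 3 hpa (SD, n = 5 each). The bmp4 transcript had 3.19, 4.93, 2.57, 3.17 and 3.68 CPM at 16 hpa, against 3.27, 2.42, 2.66, 2.25 and 3.47 CPM at 6 hpa, again with overlap (log2 change 0.32 ± 0.55 SE, edgeR adjusted p = 0.759; exact permutation p = 0.167, adjusted 0.460). The SE of the bmp4 transcript is from the fit of all 60 libraries, which include those of bmp4 RNAi. A fit of the 10 control libraries alone gave the same log2 change of 0.32 with an edgeR adjusted p of 0.191. The smallest exact p that 5 against 5 libraries allow is 0.00794.

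Other spans with no library in common with the step show where its transcripts stood earlier and later. Between 3 and 0 hpa 990 transcripts were higher (5.35%) and 641 lower (3.46%). Of the 990, 103 rose and 172 fell over the step, and of the 641, 180 rose and 55 fell. As shares these are 10.4% and 17.4% of the early higher set, and 28.1% and 8.58% of the early lower set, beside 8.85% and 6.29% of all transcripts. The 172 make up 14.8% of the step's falls and the 180 make up 10.98% of its rises.

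Named transcripts followed several courses. The TRAF2 match averaged 14.3 ± 2.02 CPM at 3 hpa and 7.28 ± 0.49 CPM at 0 hpa (SD, n = 5 each), and at 24 hpa it was 8.91 ± 0.72 CPM. The BPTF match ran the opposite way, at 22.7 ± 0.87 CPM at 3 hpa, 30.6 ± 1.58 CPM at 0 hpa and 32.4 ± 1.96 CPM at 24 hpa. KCNQ1 and LRFN5 matches were called higher at 3 hpa (log2 changes 0.75 and 0.68 against 0 hpa), while the GRM3 match was not (-0.06, edgeR adjusted p = 0.801). The ADAMTS20 match had not changed detectably by 3 hpa (0.03, edgeR adjusted p = 0.887), with 137 ± 3.29 CPM at 24 hpa and 38.3 ± 3.61 CPM at 0 hpa.

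**Figure D3:**
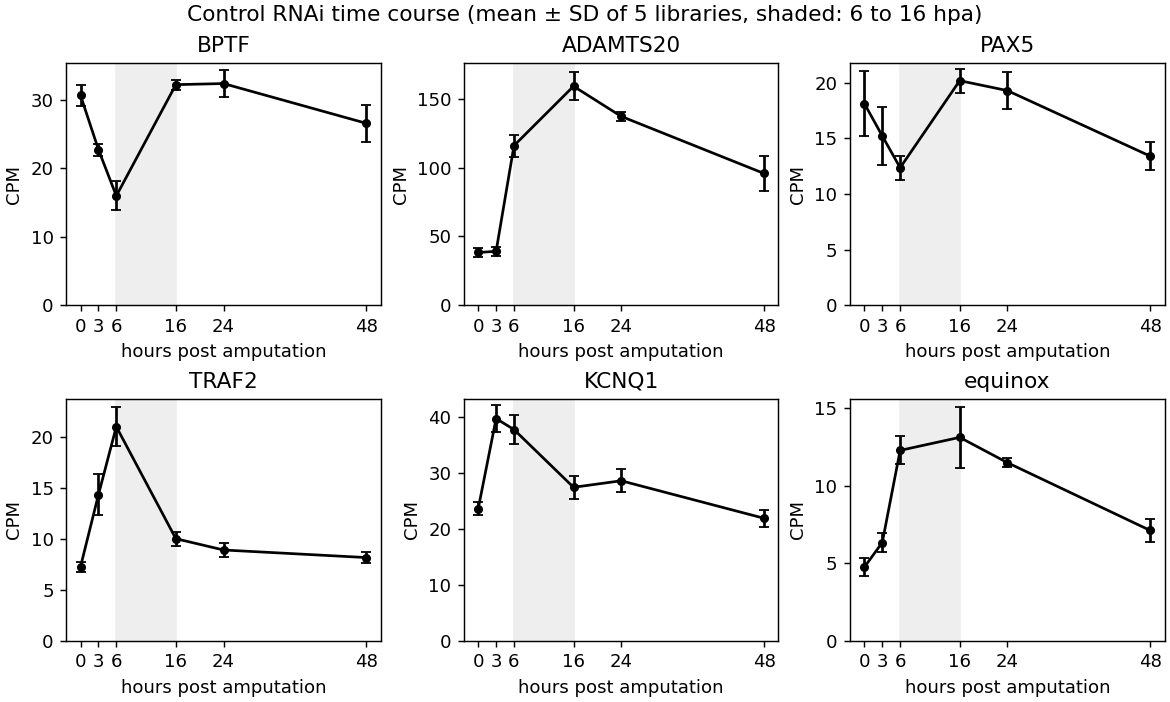
Mean CPM ± SD of 5 control RNAi libraries (vertical axis) against hours post amputation (horizontal axis), with the step from 6 to 16 hpa shaded. BPTF and PAX5 matches have their lowest mean at 6 hpa, the TRAF2 match has its highest there, and equinox is at 12.3 CPM at 6 hpa and 13.1 CPM at 16 hpa.

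The span from 3 to 24 hpa encloses the step and uses other libraries. It was added after the main results had been seen. It called 2412 transcripts higher (13.0%) and 2445 lower (13.2%). Of the step's 1639 rises, 780 were higher and 19 lower at 24 hpa than at 3 hpa, and of its 1164 falls, 21 were higher and 750 lower. Among the 570 tested transcripts with a name, 102 were higher and 84 lower in this span. The chromatin list had 16 of 33 members higher and 0 lower in it, and the neuronal list had 2 of 26 higher and 7 lower. The cilia list had 2 of 25 higher and 1 lower.

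From 24 to 48 hpa 1787 transcripts were higher (9.65%) and 1663 lower (8.98%). Of the step's rises, 237 were higher and 285 lower at 48 hpa, and of its falls, 117 were higher and 145 lower. The median log2 change of the rises in this span was -0.04 and that of the falls 0.01, beside 0.01 over all transcripts.

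The same hours under bmp4 RNAi were measured in 10 further libraries. The bmp4 transcript in them had 0.185, 0.720, 13.2, 2.99 and 5.19 CPM at 16 hpa, against 1.84, 0.863, 0.565, 1.79 and 0.487 CPM at 6 hpa. It was called higher at 16 hpa (log2 change 2.03, edgeR adjusted p = 0.0206). The libraries labelled bmp4 RNAi 16 hpa replicates 3 and 5, at 13.2 and 5.19 CPM, were above every control library of the step, and the library labelled replicate 4 was within the control range. Whether reads of the fed RNA contribute was not tested. Counts under bmp4 RNAi are therefore also given without replicates 3 and 5, an omission chosen after seeing the data.

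Under bmp4 RNAi 1233 transcripts were higher at 16 than at 6 hpa (6.66%) and 1171 were lower (6.33%), and without replicates 3 and 5 the counts were 735 and 694. Of the control step's 1639 rises, 660 were also called higher under bmp4 RNAi and 5 lower, with a median log2 change of 0.25, and without these libraries 452 were higher and 3 lower, with a median of 0.24. Of the 1164 falls, 399 were called lower and 18 higher, with a median of -0.21, and without these libraries 278 were lower and 12 higher, with a median of -0.22. With all libraries, 57 of the 570 tested transcripts with a name were higher under bmp4 RNAi and 49 lower. The chromatin list had 9 of 33 members higher and 0 lower, and the neuronal list 0 higher and 5 of 26 lower. The cilia list had 2 of 25 higher and 0 lower. Without these libraries 3 members of the chromatin list were higher, 2 of the neuronal list lower and 1 of the cilia list higher. These stand beside the 735 higher and 694 lower of all transcripts. Without replicate 3 alone, 8 of the chromatin list were higher, 4 of the neuronal list lower and 1 of the cilia list higher. That fit called 937 of all transcripts higher and 919 lower. Shares among transcripts with a name were not taken for these fits. Leaving out libraries lowers the power to call, so fewer calls alone do not show smaller changes.

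The difference between the changes under bmp4 RNAi and control RNAi was tested in itself and was called for 95 transcripts (0.513%), 52 of them positive and 43 negative. The count was 158 without bmp4 RNAi 6 hpa replicate 3, and 62 without bmp4 RNAi 16 hpa replicates 3 and 5. Of the 95, 6 were among the transcripts with a name on hand: PAX5, and 5 named after their values were seen. For the others no name was on hand, so whether they have a human match was not checked. The match of FTH1, a ferritin chain, had a log2 change of -0.93 under bmp4 RNAi and -0.26 in control RNAi, and that of FOXRED1, a mitochondrial assembly factor, had -1.18 under bmp4 RNAi and -0.24 in control RNAi. The LMLN match had 0.44 under bmp4 RNAi and -0.37 in control RNAi, and the GTF2IRD2B match had 0.42 under bmp4 RNAi and -0.45 in control RNAi. For SCLY, a selenocysteine lyase, the log2 changes were 0.58 under bmp4 RNAi and 0.08 in control RNAi. The PAX5 match averaged 13.7 ± 2.32 CPM at 16 hpa and 13.7 ± 1.57 CPM at 6 hpa under bmp4 RNAi (SD, n = 5 each), a log2 change of 0.01, against 0.71 in control RNAi. The difference was -0.70 ± 0.18 SE (edgeR adjusted p = 0.0398). The call was lost in 13 of 20 fits that left out 1 library, with differences between -0.77 and -0.63 and adjusted p between 0.0163 and 0.120, and without bmp4 RNAi 16 hpa replicates 3 and 5 the adjusted p was 0.140. For the TRAF2 match dd_Smed_v6_10569_0_1 the changes were -0.69 under bmp4 RNAi and -1.07 in control RNAi, and their difference was not called (edgeR adjusted p = 0.430). For the BPTF match they were 0.75 under bmp4 RNAi and 1.01 in control RNAi (edgeR adjusted p = 0.619 for the difference).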

How the data were processed

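The authors deposited raw counts per transcript of the dd_Smed_v6 transcriptome for all 60 libraries. Reads were trimmed with cutadapt 1.8 and aligned with Bowtie 1.2, per the submitters' processing notes. The study's methods name another Bowtie version, with its best-alignment option, and counting with bedtools. The sources used here do not state strand use. From the 28742 deposited transcripts, those passing edgeR's filterByExpr (minimum count 10, minimum total 15) over 12 groups were kept, 18510 with 99.9% of counts. Levels are CPM on TMM-scaled library sizes. All 60 libraries entered 1 quasi-likelihood fit (edgeR 4.0.16, R 4.3.3), and the test of each contrast was adjusted by Benjamini-Hochberg. The script was tested on simulated data. It missed a first criterion for the number of 2-fold changes recovered, and the criterion was then re-set around abundant transcripts, with the fit left as it was. Equinox, bmp4 and the mitochondrial share were also tested by exact two-sided permutation, on log2(CPM + 1) or percent.

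Names came from the human blastx column of a supplementary table, 1200 rows with 730 names. Named transcripts were bmp4, equinox, the 2 largest rises and falls, the 15 largest named rises and falls (adjusted p under 0.05, no overlap, at least 1 CPM in the higher group), and up to 4 calls per list and direction. Members and lists were chosen with earlier results of these data known. Alternatives were DESeq2 1.42.0, other filters, scaling and thresholds, a replicate block, and each library left out.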

Additional observations from a re-analysis of the deposited data

Results flagged for a closer look

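In 6 of 136 sets of 5 libraries 1 library stood apart from the rest, by a gap above Dixon's 95% critical value. Chance flags about 1 in 20 such sets. At 16 hpa, PCDH1 had a low library at 28.7 CPM (next 34.8), MIB1 a low library at 7.48 CPM (next 9.69), UNC5B a high library at 65.1 CPM (next 59.7), and dd_Smed_v6_18151_0_1 a high library at 0.304 CPM (next 0.0547). At 6 hpa, BPTF had a high library at 19.6 CPM (next 15.6) and DDX6 a high library at 296.6 CPM (next 278.0).

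The change of the PAX5 match differed between the RNAi conditions, by -0.70 on the log2 scale for bmp4 minus control RNAi (edgeR adjusted p = 0.0398). This call was lost in 13 of 20 fits that left out 1 library and in 1 of 6 other alternatives.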

How the results depend on the processing

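The fit of the 10 libraries alone called 4295 transcripts with 2061 falls, and a 2-fold requirement left 284 transcripts, 179 rises and 105 falls. For the difference between conditions, a 2-fold requirement left 26. With each library left out in turn, calls ran between 2268 and 2580, rises between 1304 and 1470, falls between 964 and 1110, and calls for the difference between 67 and 158. Library totals without TMM raised the share of rises among calls to 70.2%, against 58.5%. No call for a transcript in the main fit had the opposite sign in any of 16 alternatives. The replicate block gave 2734 calls (1607 rises, 1127 falls) and 88 for the difference. Same-numbered libraries did not deviate together (correlations between -0.15 and 0.05, 0 of 5 over 0.1, and 1 of 5 best with its own number), so they were not paired. Of 65 called named transcripts 54 kept their call in all of 16 alternatives, which did not include the 2-fold requirement, and 6 of the 65 reached 2-fold. These 65 were picked from the calls, mostly by non-overlap or a low adjusted p, so their rate does not stand for all calls. Among all calls, fits that left out 1 library each kept between 1267 and 1418 of 1639 rises. They kept between 907 and 1009 of 1164 falls. Of the named transcripts, CISD3, DDX6, EIF4G3 (dd_Smed_v6_10036_0_1), GATB, MIB2, SMPD2 and TSPAN5 lost their call in 8 to 11 alternatives. NLE1, SYNE1, UNC5B and ACTN2 lost it in 1 to 4. Equinox, bmp4 and the mitochondrial share were not called in any alternative run for them, and with 1 library left out the log2 change of equinox ran between 0.04 and 0.16 and that of bmp4 between 0.17 and 0.41. The totals of 15432016 to 21718234 counts at 16 hpa and 13041181 to 23912275 at 6 hpa limit precision for transcripts near 1 CPM.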
